A study of Rattus norvegicus with 12 samples.

Results

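The leukocyte integrins and their adhesion partners described here are 9 genes chosen by name: the integrin subunit genes Itgal, Itgam, Itgax, Itgad, Itgb2 and Itga4, the endothelial and glial ligand genes Icam1 and Vcam1, and Selp. Probe sets were taken where the array annotation gave exactly 1 gene symbol and that symbol was one of the 9. This gave 9 probe sets of 8 genes, of 31042 probe sets and 14217 genes in all. Itga4 had no such probe set and is named only. The genes were chosen with their values under the anti-Nogo-A antibodies already known, so every antibody value of these genes is a description without a test.

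RNA came from organotypic hippocampal slice cultures, slices of living brain kept on a membrane, made at 350 µm from Wistar rats at postnatal day 7 and kept for 26 days in vitro, with 4 slices on an insert. In 2 groups a monoclonal antibody against Nogo-A was present at 3 µg/ml for 5 days from day 21, with fresh medium every 2 days: 7B12, whose binding region spans amino acids 763 to 820, and 11C7, with amino acids 623 to 640. The IgG group received a monoclonal antibody against wheat auxin at the same dose and times, and the NT group received no antibody. Each group had 3 samples from different animals, numbered 1 to 3, each a pool of 24 cultures on 1 Affymetrix rat array. The antibodies' target, the Rtn4 product Nogo-A, sits in the membranes of myelin-forming cells and some nerve cells and is known for restraining the growth of neurites.

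Integrins are pairs of an alpha and a beta subunit that hold a cell to its neighbours or to the matrix. The leukocyte integrins share the beta subunit encoded by Itgb2, which pairs with the alpha subunit of Itgal (giving LFA-1), Itgam (Mac-1, also complement receptor 3), Itgax or Itgad. ICAM-1, encoded by Icam1, is the main ligand of LFA-1 and also binds Mac-1. VCAM-1, encoded by Vcam1, is bound by integrins with the alpha subunit of Itga4 and also by the integrin of Itgad. P-selectin, encoded by Selp, is stored in platelets and endothelial cells and slows leukocytes along a vessel wall. In brain tissue microglia carry Itgam and Itgb2, whereas Itgal is best known from lymphocytes and other blood leukocytes. Slice cultures have no blood flow.

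The values are ratios per probe set, taken as log2 and set to the median of their array, so no gene's level can be set against another's. For the 76.4% of probe sets with a 12-array median ratio of 1, 0 is close to the probe set's own middle. For the other 7319 the median ratio was under 1, and their middle can lie well below 0. The 12 arrays limit the precision of all differences below. Arrays with the same number resembled each other across groups, so each antibody array is also given as its difference from the mean of the IgG and NT arrays of its number. Neuronal markers followed the number: the mean of 6 neuronal genes lay between -2.05 and -1.21 in the number 1 arrays of all 4 groups, and between -0.24 and 1.36 in the other 8 arrays. Because RNA came from whole slices, fewer cells of a type and less RNA per cell cannot be told apart.

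The upstream bases of the ligand genes are shown because Icam1 and Vcam1 are textbook targets of NF-κB, a transcription factor of inflammatory signalling. RefSeq promoter windows on the rat assembly GRCr8 were at hand for 5 of the 9 genes. The windows below run 5′ to 3′ on the gene's own strand and end at the base before the outermost annotated start, with motif matches in capitals. They are chr8:27829595-27829687 on the plus strand for Icam1 and chr2:206742784-206743033 on the minus strand for Vcam1.
Icam1: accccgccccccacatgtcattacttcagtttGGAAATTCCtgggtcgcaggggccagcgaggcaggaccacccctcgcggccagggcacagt
Vcam1: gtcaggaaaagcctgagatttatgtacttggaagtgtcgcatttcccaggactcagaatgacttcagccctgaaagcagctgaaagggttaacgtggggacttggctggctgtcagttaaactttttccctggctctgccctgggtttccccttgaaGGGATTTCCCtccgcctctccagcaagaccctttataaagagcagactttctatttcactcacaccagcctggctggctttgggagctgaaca

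Both strands were searched for the NF-κB consensus and for GGNANTTCC, a form chosen after the letters had been read. The Vcam1 window held the consensus as GGGATTTCCC, from base -93 to base -84 before the start, and GGNANTTCC overlapped it. The Icam1 window held GGNANTTCC as GGAAATTCC, from base -61 to base -53, and no consensus match. Of 33469 RefSeq promoter windows cut to 250 bases like that of Vcam1, 6.33% held the consensus and 3.7% held GGNANTTCC. Cut to 93 bases like that of Icam1, 2.26% held the consensus and 1% held GGNANTTCC. Each cut kept the first bases of a window and did not end at the other genes' own outermost starts. These shares thus need not describe the bases just before a start. As GGNANTTCC was chosen from the letters shown, its shares are descriptions only. The Itgam window, with 154 bases before the start, held neither motif. The Itgax and Itga4 windows had 0 bases before the outermost start, so nothing was searched for them. A match is a string of letters and not a measured site. Whether NF-κB had a part in the values of these genes was not tested.

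Of the 9 probe sets, that of Itgal, the alpha subunit of LFA-1, stood furthest above the controls in 7B12. Its values were 2.49, 2.29 and 3.86 in 7B12 1, 2 and 3 and 2.09, -0.54 and 0.01 in 11C7. They were -1.45, -1.51 and 0.29 in IgG and -1.60, -1.68 and 0.07 in NT. All 3 of the 7B12 arrays lay above every other array, while in 11C7 only the number 1 array lay above all 6 controls. The mean difference from the controls was 3.86 ± 0.70 (SE, 14.5-fold) in 7B12 and 1.50 ± 0.70 (2.82-fold) in 11C7, which was 0.71 without 11C7 1. Against same-number controls 7B12 stood 4.02, 3.89 and 3.68 higher, a mean of 3.86 ± 0.17 (SD, n = 3). For 11C7 these differences were 3.61, 1.05 and -0.18, with an SD of 1.93. The 7B12 arrays thus differed little among themselves once the number was taken off, whereas the 11C7 arrays remained far apart.

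Itgax, which encodes the alpha subunit CD11c of dendritic cells and activated microglia, had 2.11, 1.70 and 2.70 in 7B12 and 2.31, -0.29 and -0.41 in 11C7. Its values were 0.18, -0.53 and -0.11 in IgG and 0.07, -0.99 and 0.05 in NT. Every 7B12 array lay above all 6 controls, and 11C7 1 lay among the 7B12 arrays while 11C7 2 and 11C7 3 lay among the controls. The difference from the controls was 2.39 ± 0.58 (SE, 5.25-fold) in 7B12 and 0.76 ± 0.58 in 11C7. Without 11C7 1 the 11C7 difference was -0.13.

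Itgad, the alpha subunit of an integrin of tissue macrophages, stood above the controls in most arrays of both antibodies. It had 1.40, 1.36 and 1.13 in 7B12 and 1.59, -0.38 and 1.73 in 11C7. The controls had -0.54, 0.21 and -1.65 in IgG and -1.33, -1.02 and -0.91 in NT. All 7B12 arrays and 11C7 arrays 1 and 3 lay above the 6 controls, and 11C7 2 lay among them. The difference was 2.17 ± 0.51 (SE, 4.51-fold) in 7B12 and 1.85 ± 0.51 (3.61-fold) in 11C7. The 12-array median ratio of this probe set was 0.92 and not 1, a property of 7319 probe sets (called dim here, a name only) that Itgad shares with both Selp probe sets. RefSeq's table also lists the name Itgax as a synonym of Itgad.

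Itgam, whose subunit is part of the complement receptor of microglia, showed a smaller difference and groups that overlapped. Its values were -0.03, 0.54 and 0.92 in 7B12, 0.36, -0.63 and 0.33 in 11C7, -0.80, -0.46 and 0.44 in IgG and -1.48, -0.66 and 0.16 in NT. The number 3 control arrays reached higher than 7B12 1. Against controls of the same number, 7B12 stood 1.11, 1.10 and 0.62 higher, and 11C7 1.50, -0.07 and 0.03. The difference of group means was 0.94 ± 0.43 (SE) in 7B12 and 0.48 ± 0.43 in 11C7. In the RefSeq annotation Itgam, Itgax and Itgad are neighbours on chromosome 1 with 0 annotated genes between them, and 48 genes lie between Itgal and Itgam.

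Itgb2, the shared beta subunit, had 0.06, 0.15 and 1.29 in 7B12 and 0.40, -0.44 and 0.22 in 11C7. It had -0.35, -0.60 and 0.41 in IgG and -0.52, -0.72 and 0.36 in NT. Groups overlapped, since both number 3 controls lay above 7B12 1 and 7B12 2. The difference from the controls was 0.74 ± 0.38 (SE, 1.67-fold) in 7B12 and 0.30 ± 0.38 in 11C7. Against controls of the same number, 7B12 stood 0.50, 0.82 and 0.91 higher, and 11C7 0.83, 0.23 and -0.17. In 7B12 the mean difference of the shared subunit was below that of each of its alpha partners, by less than 1 SE in the case of Itgam. In 11C7 the same order held over all arrays, with Itgb2 at 0.30 and Itgam, next above it, at 0.48. It depended on array 11C7 1, without which Itgb2 stood at 0.13 and Itgax at -0.13. For Itgal, Itgam and Itgb2 both number 3 controls lay above the other 4 controls, a pattern of 11.3% of all probe sets.

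**Figure D1:**
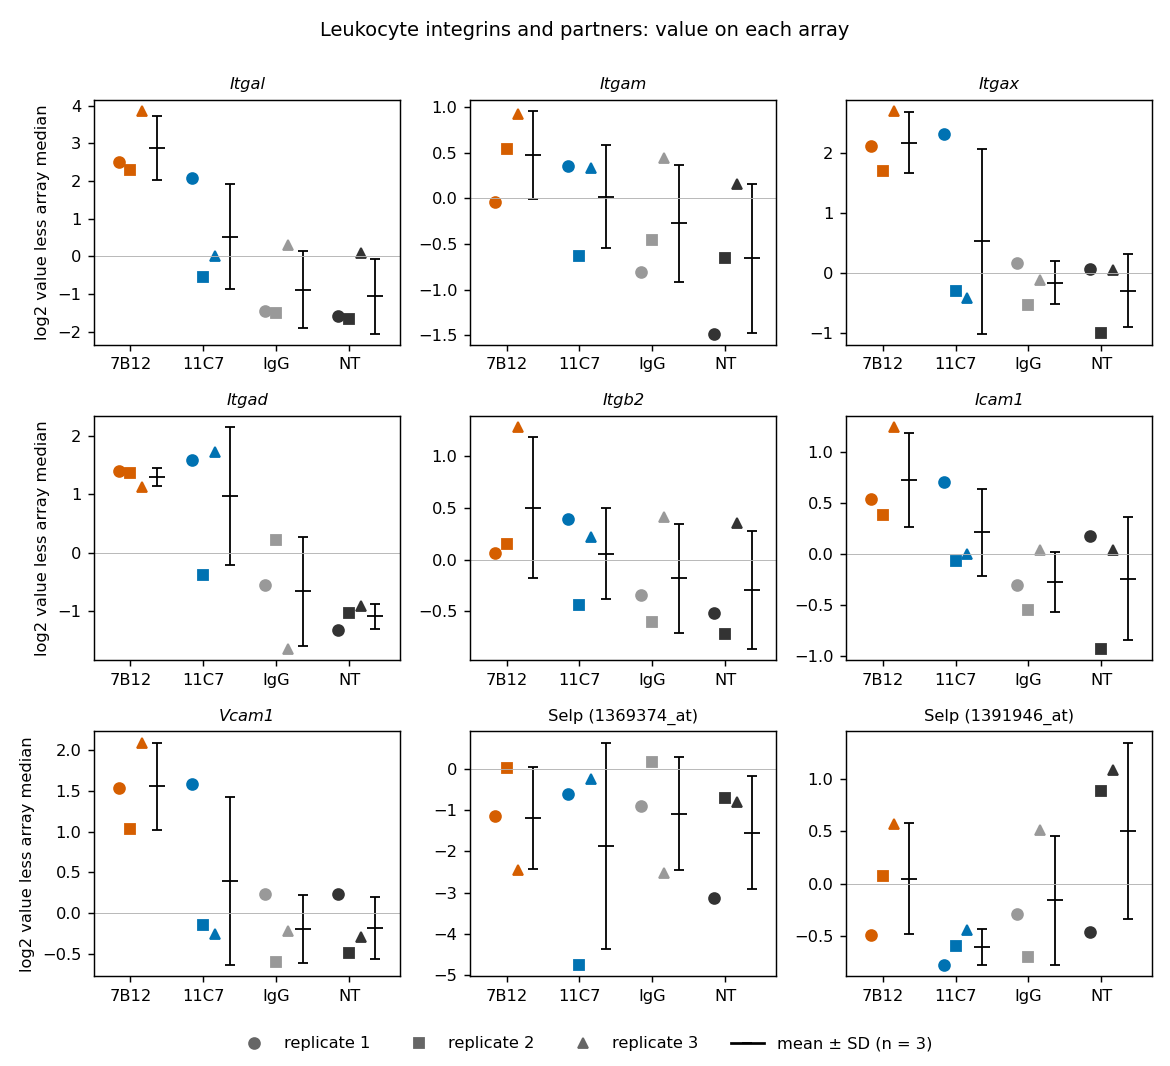
Log2 ratio less the array median (vertical axis) of each of the 9 probe sets in the 12 arrays, by group from 7B12 and 11C7 to IgG and NT, with the replicate number as the shape of a point and a bar for the mean and SD of 3 arrays. For Itgal the 7B12 arrays lie between 2.29 and 3.86, above the controls, which lie between -1.68 and 0.29.

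Among the ligand genes, Vcam1 had 1.54, 1.03 and 2.10 in 7B12 and 1.59, -0.15 and -0.26 in 11C7. Its values were 0.23, -0.60 and -0.22 in IgG and 0.24, -0.50 and -0.30 in NT. As for Itgax, the 7B12 arrays and 11C7 1 lay above all 6 controls and the other two 11C7 arrays lay among them. The difference was 1.75 ± 0.43 (SE, 3.36-fold) in 7B12 and 0.59 ± 0.43 (1.50-fold) in 11C7. Without 11C7 1 the 11C7 difference was -0.01. Against controls of the same number, 7B12 stood 1.31, 1.58 and 2.36 higher, and 11C7 1.35, 0.40 and 0.00.

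Icam1 had 0.54, 0.38 and 1.24 in 7B12 and 0.70, -0.07 and -0.00 in 11C7. It had -0.31, -0.56 and 0.03 in IgG and 0.17, -0.94 and 0.04 in NT. The lowest 7B12 array lay above the highest control array by a small step, and 11C7 1 lay above the controls too. The difference was 0.98 ± 0.32 (SE, 1.97-fold) in 7B12 and 0.47 ± 0.32 in 11C7. Against controls of the same number, 7B12 stood 0.61, 1.13 and 1.21 higher, and 11C7 0.77, 0.67 and -0.04.

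Selp had 2 probe sets, both dim, and they did not order the arrays alike. On 1369374_at the values were -1.14, 0.03 and -2.45 in 7B12, -0.60, -4.75 and -0.24 in 11C7, -0.89, 0.17 and -2.53 in IgG and -3.13, -0.70 and -0.80 in NT. On 1391946_at they were -0.49, 0.07 and 0.57 in 7B12, -0.77, -0.59 and -0.44 in 11C7, -0.29, -0.70 and 0.51 in IgG and -0.46, 0.88 and 1.09 in NT. Groups overlapped on both, and Pearson's r between the probe sets over the 12 arrays was 0.05. The difference from the controls was 0.13 ± 1.10 (SE) and -0.12 ± 0.40 in 7B12, and -0.55 ± 1.10 and -0.77 ± 0.40 in 11C7. An SE of 1.10 leaves the first probe set's difference unresolved.

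Over the 9 probe sets, those whose 3 arrays of 7B12 all lay above all 6 controls were 5, Itgal, Itgax, Itgad, Icam1 and Vcam1, against 1.99% of all probe sets. For 11C7 there were 0, against 0.767% of all. With each array set against both controls of its own number, 7 members lay above them in 3 of 3 numbers in 7B12 (all but those of Selp), against 8.07% of all probe sets, and 0 in 11C7, against 4.5%. A mean at least 2-fold above the controls was reached by Itgal, Itgax, Itgad and Vcam1 in 7B12, against 5.56% of all probe sets, and by Itgal and Itgad in 11C7, against 2.87%. Because the members were chosen from these contrasts, nothing is read from these counts. Over all probe sets, limma's moderated test with Benjamini-Hochberg adjustment called 0 (0%) in each antibody contrast. The unadjusted p was under 0.05 for 1615 probe sets (5.2%) in 7B12 and for 999 (3.22%) in 11C7. The one-way analysis of variance of the study's design text, at 0.05 with a 1.2-fold limit, took 928 probe sets (2.99%), and 0 after Benjamini-Hochberg adjustment.

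The 11C7 arrays differed from each other on the members. Without 11C7 1 the 11C7 difference was also smaller for Itgam (0.31), Itgb2 (0.13) and Icam1 (0.22), while that of Itgad was 1.55. Array 11C7 1 lay above all 6 controls for 5 of the 9 probe sets, against 14.1% of all probe sets. Array 11C7 3 did so for Itgad alone, against 11.7%, and 11C7 2 for 0, against 13.1%. Between the antibodies, 7B12 stood 2.36 ± 0.81 (SE) above 11C7 for Itgal, the member for which every 7B12 array lay above every 11C7 array, as 3.89% of all probe sets did. In this contrast limma called 0 of 31042 probe sets (0%), and the unadjusted p was under 0.05 for 1189 (3.83%).

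**Figure D2:**
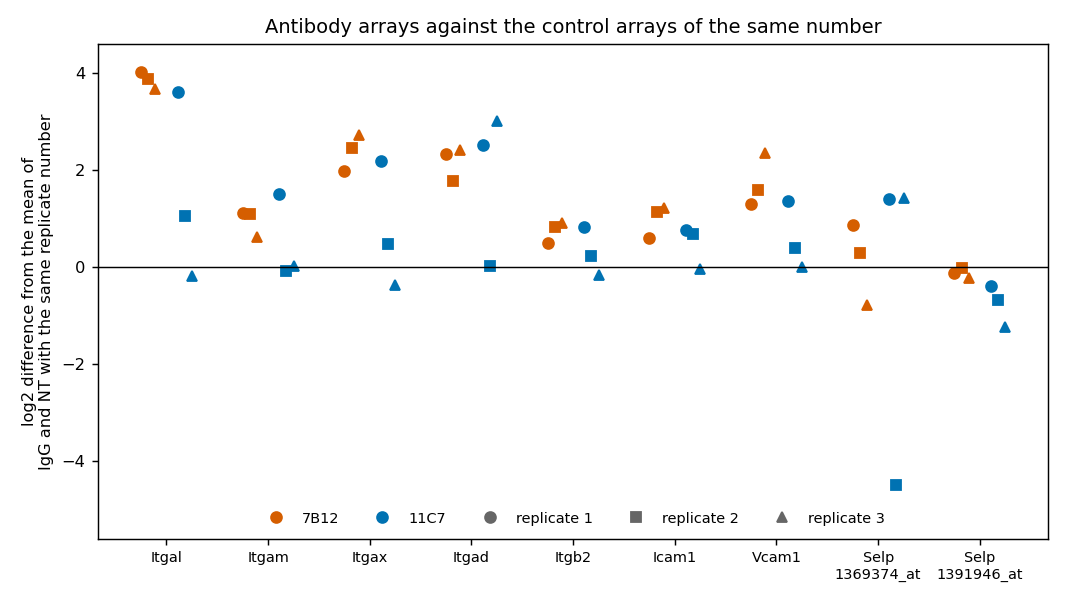
Difference of each antibody array from the mean of the IgG and NT arrays of its own number (log2, vertical axis) for each probe set (horizontal axis), with 7B12 left of 11C7 and the replicate number as the shape of a point. For Itgal the 7B12 points lie between 3.68 and 4.02 and those of 11C7 between -0.18 and 3.61.

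The IgG group against NT asks what an antibody without a target in the slice does to these genes, and this contrast did not choose the members. None of the 9 probe sets passed. The differences were 0.18 ± 0.81 (SE) for Itgal, 0.39 ± 0.49 for Itgam, 0.14 ± 0.67 for Itgax, 0.43 ± 0.58 for Itgad and 0.11 ± 0.44 for Itgb2. They were -0.03 ± 0.37 for Icam1, -0.01 ± 0.50 for Vcam1 and 0.46 ± 1.27 and -0.66 ± 0.46 for the Selp probe sets. Limma's adjusted p was 1.00 for each, and the smallest unadjusted p was 0.178, for Selp 1391946_at. Groups overlapped for each member, while all IgG arrays lay above all NT arrays for 2.54% of all probe sets and below them for 2.06%. Limma called 0 of 31042 probe sets (0%), and 719 had an unadjusted p under 0.05 (2.32%). Between arrays of the same number, IgG stood 0.14, 0.16 and 0.22 above NT for Itgal, 0.68, 0.20 and 0.28 for Itgam and 0.17, 0.12 and 0.05 for Itgb2. These differences had 1 sign in 3 of 3 numbers, and none of the other 6 probe sets had 1 sign in all numbers. The share of all probe sets with 1 sign in all numbers was not counted, so nothing is read from this.

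Other genes of adhesion were taken from 5 lists, as the mean of a gene's probe sets. In the 7B12 contrast limma called 0 of 14217 genes (0%), with 860 (6.05%) at an unadjusted p under 0.05, and in 11C7 0 (0%), with 425 (2.99%). Over all genes the median difference was 0.01 in 7B12, with 52.1% above 0, and 0.03 in 11C7, with 56.1% above 0. Since each list had 0 genes that rose and 0 that fell, the values below are differences that did not pass.

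Of the other integrin alpha subunits, 2 of 11 measured genes lay above 0 in 7B12, with a median of -0.33, and 4 in 11C7, with a median of -0.10. Itga5, the alpha subunit of the classical fibronectin receptor, had 0.37, 0.02 and 0.90 in 7B12, against -0.81 to 0.25 in the 6 controls, so groups overlapped. Its 7B12 difference was 0.77 ± 0.33 (SE), with limma's adjusted p = 0.804. Itga6, a laminin receptor subunit, stood at -0.33 in 7B12 and Itga8 at -0.48. Of the other beta subunits 4 of 6 lay above 0 in 7B12 (median 0.10), with Itgb7 at 0.41, Itgb4 at 0.34, Itgb3 at -0.69 and Itgb6 at -1.32, and 1 of 6 in 11C7 (median -0.08). The alpha subunits outside the leukocyte set were thus mostly below 0 in 7B12, and their range ran from -1.14 to 0.77.

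Integrins grip their ligands after signals inside the cell bind talin and kindlin to the beta subunit's tail. Of 18 measured genes of that machinery, 11 lay above 0 in 7B12 (median 0.06), 3 of them at an unadjusted p under 0.05, and 10 in 11C7 (median 0.09). Fyb1, an adaptor of haematopoietic cells that couples receptors to integrin activation, had 1.11, 1.29 and 2.06 in 7B12 and 1.33, -1.08 and 0.04 in 11C7. It had -0.58, -1.24 and 0.53 in IgG and -0.64, -1.32 and 0.04 in NT, so the 7B12 arrays lay above all controls. Its 7B12 difference was 2.02 ± 0.56 (SE), with limma's adjusted p = 0.491. Fermt3, the kindlin of blood cells, stood at 0.73 ± 0.29 (adjusted p = 0.743 by limma) and overlapped with the controls, and so did Vav1, an exchange factor of immune cells, at 0.90 ± 0.40 (adjusted p = 0.823 by limma). The largest opposite value of the list was -0.35, for Cytip, which restrains LFA-1 adhesion.

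Of the other ligands and junction partners 10 of 18 measured genes lay above 0 in 7B12 (median 0.20) and 12 in 11C7 (median 0.06). C3, the complement protein whose fragment Mac-1 binds, had 0.73, 0.92 and 1.37 in 7B12, 0.81, -1.14 and 0.04 in 11C7, -0.61, -0.89 and 0.24 in IgG and -0.65, -1.26 and 0.04 in NT. It repeated the order seen for Itgax and Vcam1, with the 7B12 arrays and 11C7 1 above all 6 controls. Its 7B12 difference was 1.53 ± 0.45 (SE), with limma's adjusted p = 0.527. Alcam, an adhesion molecule of the immunoglobulin family, lay lower in 7B12, at -0.18, -0.12 and -0.41 against -0.04 to 0.34 in the controls. Its difference was -0.41 ± 0.14, with limma's adjusted p = 0.642. The junction gene F11r, a ligand of LFA-1, stood at -0.61 ± 0.28, and Fgg, a fibrinogen chain, at 1.64 ± 0.93. Fgg had -0.03 to 0.35 in 7B12 and up to 0.81 in the controls, so groups overlapped. Its values in NT 2, IgG 2 and IgG 3, -3.33, -3.39 and -2.42, lay far below the other controls.

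Of the selectins and their ligands 5 of 7 measured genes lay above 0 in 7B12 (median 0.30) and 6 in 11C7 (median 0.05), and the leukocyte ligand gene of P-selectin, Selplg, was not measured. Cd44, a hyaluronan receptor that can carry selectin ligands, had 0.39, 0.22 and 0.68 in 7B12, against -0.37 to 0.07 in the 6 controls. Its 7B12 difference was 0.61 ± 0.20 (SE), with limma's adjusted p = 0.622. Fut4, a fucosyltransferase that makes selectin ligands, stood at 1.35 ± 0.53 (adjusted p = 0.737 by limma), and its lowest control value, -2.65 in NT 2, lay far from the other 5. Podxl, a sialomucin, stood at 0.30 and Cd24, a mucin-like ligand of P-selectin, at -0.21.

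**Figure D3:**
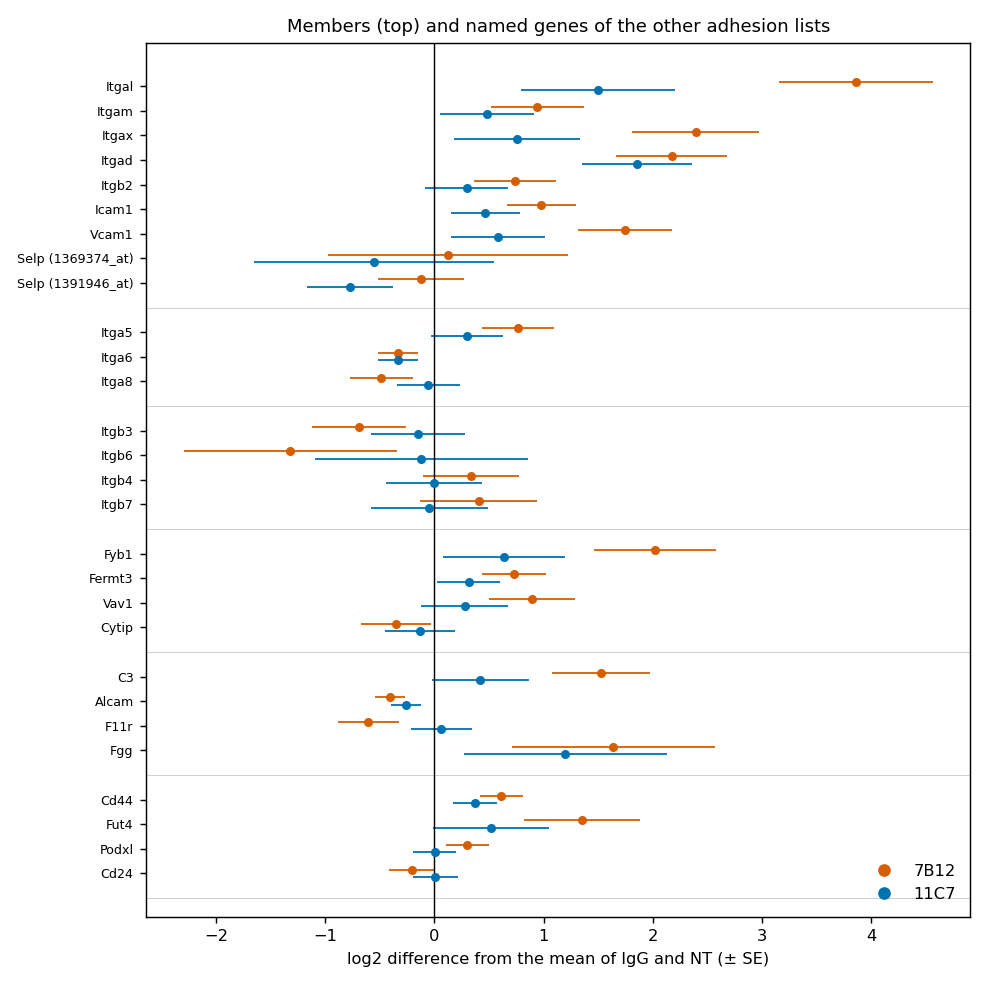
Log2 difference from the mean of IgG and NT (horizontal axis, bars ± SE) for the members, at the top, and for the named genes of the 5 lists of other adhesion genes, separated by lines, with 7B12 drawn above 11C7 for each gene. Fyb1 stands at 2.02 in 7B12, between Vcam1 at 1.75 and Itgad at 2.17.

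Markers of the cells that carry these integrins were measured beside them. The mean of 10 microglial markers overlapped between groups, at -0.23 to 0.25 in 7B12, -0.15 to 0.42 in 11C7, -0.35 to 0.61 in IgG and -0.55 to 0.51 in NT. Of these 10 genes, 6 lay above 0 in 7B12 and the median difference was 0.22, with 2 at an unadjusted p under 0.05 and 0 called by limma. Those 2 went opposite ways, Tmem119 at 1.07 and Sall1 at -0.71. The other microglial genes below 0 were Trem2 at -0.64, P2ry12 at -0.56 and Gpr34 at -0.44. Those above 0 besides Tmem119 were Cx3cr1 at 0.39, Aif1 at 0.34, Olfml3 at 0.30, Csf1r at 0.27 and Tyrobp at 0.16. The mean of 6 markers of border macrophages ran from 0.23 to 0.62 in 7B12, from -0.51 to 0.29 in 11C7, from -0.34 to 0.02 in IgG and from -0.92 to -0.43 in NT, so 7B12 lay above all controls. Ms4a7 stood 2.84 ± 0.64 (SE) and the mannose receptor gene Mrc1 2.46 ± 0.61 above the controls in 7B12, with limma's adjusted p = 0.401 and 0.416. The other 4 stood close to or below the controls, Lyve1 at 0.24, Pf4 at 0.14, Cd163 at -0.05 and F13a1 at -0.57, and the median of the 6 differences was 0.19.

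The mean of 7 monocyte markers was -0.22 to 0.75 in 7B12, -0.63 to 0.02 in 11C7, -0.56 to -0.04 in IgG and -0.82 to -0.60 in NT, and 7B12 overlapped with IgG. Of the 7 genes, 3 lay above 0 in 7B12, Cd14 at 2.38, Plac8 at 2.11 and Lyz2 at 1.40, and 4 below, S100a4 at -0.02, Ccr2 at -0.14, Vcan at -0.25 and Ly6c at -0.67. Their median was -0.02, and limma called 0, with 3 at an unadjusted p under 0.05. The mean of 13 T and NK cell markers was -1.28 to -0.28 in 7B12, -1.64 to -0.85 in 11C7, -0.97 to -0.62 in IgG and -1.60 to -1.04 in NT, and groups overlapped. Of these 13 genes, 9 were dim on every probe set, and the ratios do not show their level. The 13 differences in 7B12 ran from -2.20 for Klrd1 to 1.87 for Cd3d, both dim, with a median of 0.17 and 9 above 0. Cd3d, of the T cell receptor complex, had -1.36, 0.56 and -0.51 in 7B12, -1.72, -0.55 and -1.46 in IgG and -3.93, -3.12 and -3.04 in NT, so 7B12 overlapped with IgG. Limma called 0 of the 13, with 3 at an unadjusted p under 0.05 in 7B12, Cd3d, Klrd1 and Lck. Lck, which was not dim, stood at 0.58 ± 0.17 (SE, limma's adjusted p = 0.533). Its values were 0.44, 0.49 and 0.60 in 7B12, 0.06, -0.02 and 0.50 in IgG and -0.63, -0.34 and 0.00 in NT. On Lck too, 7B12 overlapped with IgG. Cd5 and Il2rb, also not dim, stood at 0.17 and -0.23. The mean of 10 endothelial markers was -1.33 to -0.02 in 7B12, -0.67 to 0.23 in 11C7, -0.82 to 0.32 in IgG and -1.21 to 0.67 in NT. Endothelial markers, like those of neutrophils and platelets, overlapped between groups, and 2 of the 10 endothelial genes lay above 0 in 7B12. Of 6 neutrophil genes, 4 of them dim, 4 lay above 0 in 7B12, with a median of 0.32. Camp stood at 1.97, S100a8 at 1.23, S100a9 at 0.40 and Csf3r at 0.24, against -0.16 for Cxcr2 and -1.06 for Mmp8. Limma called 0 of the 6, with Camp and S100a8 at an unadjusted p under 0.05. In 11C7 5 of the 6 lay above 0, and Mmp8 stood at -3.10. Groups also overlapped on the means of 3 B cell and 3 dendritic cell markers. In each list 2 of the 3 genes were dim. In 7B12 Cd79b stood at 2.75 ± 0.92 (SE, limma's adjusted p = 0.629), Blk at 0.08 and Ms4a1 at -1.22. The Cd79b values were 1.02, 1.39 and 2.18 in 7B12, against -3.83 to 0.42 in the controls. All 3 dendritic cell genes lay above 0 in 7B12, with a median of 0.95, and in 11C7, with a median of 0.49. The 7B12 differences were 0.95 ± 1.03 (SE) for Flt3, 0.52 ± 0.87 for Clec9a and 1.11 ± 0.96 for Batf3. In both contrasts 0 had an unadjusted p under 0.05 by limma. Single controls lay far below the other values, at -3.77 for Batf3 in IgG 3 and -3.80 for Clec9a in IgG 2. In IgG minus NT 0 of the 3 lay above 0, with a median of -0.51. Since the values are ratios, none of these lists can be read as absent. The part of macrophage, monocyte, neutrophil, lymphocyte or dendritic cell RNA in the values of the integrins was not tested.

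**Figure D4:**
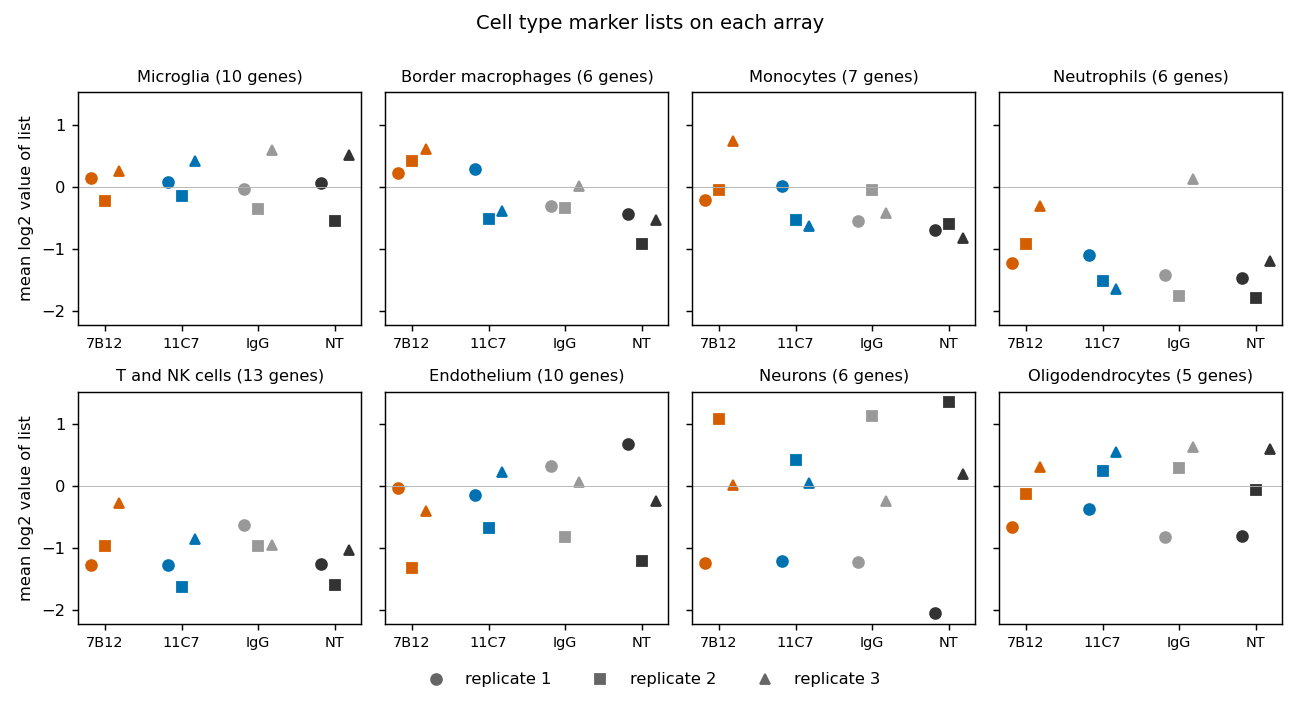
Mean log2 value of each cell type's marker list for 8 cell types (vertical axis) in the 12 arrays, by group from 7B12 and 11C7 to IgG and NT, with the replicate number as the shape of a point. The mean of border macrophage markers lies between 0.23 and 0.62 in 7B12 and at or below 0.02 in the controls, while microglial markers overlap. Of the 6 border macrophage genes, Ms4a7 (2.84) and Mrc1 (2.46) have the largest 7B12 differences, and Lyve1 is next at 0.24.

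The members resembled each other to different degrees over the 12 arrays, which share their groups and numbers, so that the values of r are descriptions. Itgax and Vcam1 were closest (Pearson's r = 0.98). Itgal had r = 0.92 with Itgax, 0.89 with Icam1 and 0.84 with Itgb2. After the mean of each number was taken off, Itgal and Itgb2 had r = 0.95 and Itgax and Itgb2 r = 0.98, against 0.70 before. Itgad had r between 0.43 and 0.68 to the other members apart from Selp, and Selp between -0.42 and 0.42. Itgam had r = 0.49 with Vcam1, 0.57 with Itgax and 0.60 with Icam1, but 0.81 with Itgal and 0.87 with Itgb2.

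Among all other probe sets with 1 symbol, the 5 most like Itgal were those of the lectin receptor genes Clec4a and Clec4a1, of Gga2 and of Pilrb2l4, which had 2 of them (r = 0.98 each). With the mean of each number taken off they were Naaa, the Fc receptor chain gene Fcer1g, Clec4a3, the copper carrier gene Cp and Pilrb2l4 (r = 0.99 each). Itgb2 was most like the phosphatase genes Ptpn7 and Ptpn18, the leukocyte plastin gene Lcp1, Rpl14 and Fli1. With the number taken off it was most like the immunoproteasome gene Psmb9, Capza1, Ch25h, Itgax and Vasp. Icam1 was most like Lpcat3 (r = 0.96), Helb, Tlr7, Slc39a8 and Vasp, and with the number taken off like Lgals3bp (r = 0.98), Slfn9, Slc41a2, Scamp2 and Cd82. Vcam1 was most like Irak3, a brake on interleukin-1 and Toll-like receptor signalling (r = 0.99), Fam43a, Timp1, Itgax and Arrdc1. With the number taken off it was most like Vasp, Gbp2 and Nfkbia, the inhibitor of NF-κB, then Cd14 and Lst1 (r = 0.99 each).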

How the data were processed

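Groups and replicate numbers came from the sample titles; per the labels, replicates are separate cultures from different animals. Affymetrix rat arrays were hybridised with biotin-labelled cRNA per the labels, and the submitters' processing notes name GCOS 1.4 and MAS5. What was deposited is a ratio for each probe set. Per the labels' design text the authors divided by the control median, but the median was 1 (tolerance 0.0015) for 76.4% of probe sets over all 12 arrays and for 11.2% over the controls, so the divisor looks like the 12-array median. It leaves log2 differences between groups as they are and hides the level.

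From 31099 rows, 57 spike-in controls were left out. By the platform annotation, 20826 probe sets have 1 symbol, 436 several and 9780 none here. Each value is log2 of the ratio less the array median. One mean per group was fitted over 12 arrays in limma 3.58.1 (R 4.3.3) with lmFit and eBayes, with two-sided tests adjusted by Benjamini-Hochberg over all probe sets (or all genes, for the lists) at 0.05; controls are the mean of IgG and NT. The code was tested on simulated data. Every member is named; of each list the 3 genes with the smallest unadjusted p in 7B12 and the largest opposite change are named; likeness names the 5 probe sets of highest r. Named markers were chosen after their values were seen. Members and lists were chosen with earlier results of these data known. Normalization, filter, control, replicate block, spread estimate and each array were varied.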

Additional observations from a re-analysis of the deposited data

How the results depend on the processing

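No probe set passed an adjusted p of 0.05 in any contrast under the values as deposited, quantile normalization, IgG alone as the control or a robust estimate of the spread. With only probe sets of a 12-array median of 1 or more, 1 passed in IgG minus NT. Leaving out each array in turn gave 0 to 10 in 7B12 minus controls (10 without 11C7 1) and 0 to 1 in each of the other contrasts. Replicate numbers were checked for pairing: 17 of 18 same-number pairs of arrays had a correlation of deviations over 0.1 (range 0.09 to 0.42), short of the rule that every pair must, although all 12 arrays correlated best with an array of their own number. With the replicate block 0 passed in every contrast. With the block and the 11C7 arrays left out of the fit, 68 passed in 7B12 minus controls; the cause was not tested. Probe sets with all arrays above all controls numbered 1375 in 7B12 and 814 in 11C7 against IgG alone, where fewer arrays must be passed. Against both controls of the same number they were 2505 and 1397. Leaving out arrays moved them between 618 and 1682 in 7B12 and between 238 and 1433 in 11C7. The analysis of variance took 0 after Benjamini-Hochberg adjustment. The median difference of other ligands in 7B12 was 0.0915 with IgG alone and 0.0835 with the filter, and ranged from 0.0992 to 0.263 without single arrays, against -0.0224 to 0.12 in 11C7. Of 795 member values 760 kept their sign, and 2 moved by over 1 SD, both for Itgax without 11C7 1: -0.13 in 11C7 minus controls and 2.52 in 7B12 minus 11C7. No scanner files were used here, so background correction and slide were not varied. Limits are 3 arrays per group, ratios without level, and probe sets of Itgad and Selp that are dim.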
